A study of Mus musculus with 6 samples.

Results

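The genes described here encode Fc receptors and close relatives that are used by microglia, the resident macrophages of the brain. They are Fcgr1, Fcgr2b, Fcgr3, Fcer1g and Fcrls, identified by gene symbol and chosen with earlier results of these data known. All 5 were found among the 15388 genes of the deposited table. RNA was measured in the hippocampus of 3 mice that carried Cx3cr1-cre/ERT2+ and NuTRAP+. The Cre recombinase is fused to a tamoxifen-responsive receptor and driven by the Cx3cr1 promoter, and the mice received tamoxifen on 5 consecutive days. The study worked with animals of both sexes at an age of about 3 months. Recombined cells then carry a GFP-tagged protein of the large ribosomal subunit on their ribosomes. In translating ribosome affinity purification (TRAP), part of the cleared homogenate was kept as Input, and the RNA bound to ribosomes pulled down with an antibody to GFP gave the Positive fraction. Animals 201, 207 and 208 each gave 1 Input and 1 Positive library, so that both groups share genotype, treatment and animals and differ only in the fraction. There was no Cre-negative group among the 6 libraries, and the unbound fraction was not analysed here. Cx3cr1 is also expressed by macrophages at the borders of the brain and by blood monocytes, so the promoter alone does not limit the tag to microglia. For its work on microglia the study left 3 to 4 weeks between tamoxifen and tissue collection, a wait meant to let short-lived blood monocytes be replaced by untagged cells.

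Fc receptors bind the constant part of antibodies and link antibody-coated particles to phagocytosis and cytokine release. Activating receptors signal through a small adaptor chain with a tyrosine-based activation motif (ITAM), which is phosphorylated by Src family kinases and then recruits the kinase Syk. The inhibitory receptor instead carries an inhibitory motif (ITIM) in its own tail and recruits phosphatases that oppose this signal.

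The Input libraries held 14879734 to 16488460 reads and the Positive libraries 15790210 to 17757918. Values below are scaled reads, that is, the deposited read estimates divided by a size factor per library (0.957 to 1.08). In Positive, all 14 microglial markers were higher, with a median log2 fold change of 4.63 and a summed level of 6220 to 6717 scaled reads in Input and 122301 to 179743 in Positive. All 10 oligodendrocyte markers and all 7 choroid plexus markers were lower, with medians of -2.13 and -2.08. Of 10 neuronal markers 3 were higher, none was lower and 7 were not called, with a median of 0.11, and of 10 astrocyte markers 1 was higher, 4 were lower and 5 were not called, with a median of -0.33. The Positive library of animal 208 had the lowest summed level of microglial markers among the Positive libraries. Reads carried no molecular identifiers, so intervals and floors given for low reads cover counting error only. Input and Positive of an animal came from the same homogenate. A gene higher in Positive was thus richer in the RNA pulled down than in the cleared homogenate. For a level within a fraction, more cells of a type and more RNA per cell cannot be told apart.

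All 5 genes were higher in Positive than in Input, by 19.3-fold to 32.4-fold, and all 5 were called by edgeR at an adjusted p-value under 0.05 (n = 3 libraries in each group). Over all 15344 genes tested, 24.0% were called higher and 46.0% were called in either direction. All 5 were also over 5-fold higher, against 3.75% of the genes tested. The median log2 fold change was 4.82 for the 5 genes and -0.01 for all genes tested. For each of the 5, every Positive library lay above every Input library, which held for 29.0% of the genes tested. With separate groups in either direction the share was 56.5%. Summed over the 5 genes, the Input libraries of animals 201, 207 and 208 held 605, 594 and 619 scaled reads and the Positive libraries held 15824, 20018 and 13269.6.

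Fcgr1 (ENSMUSG00000015947, mm10 chromosome 3, 96282909 to 96293969, minus strand) encodes CD64, the high-affinity activating receptor for IgG. It had 53.9, 33.7 and 31.3 scaled reads in Input, against 1325, 1506 and 1031 in Positive in animals 201, 207 and 208. The lowest Positive library thus stood far above the highest Input library, and the Input values rest on only 30 to 53 reads per library. The means were 39.6 ± 12.4 and 1287 ± 239.9 (SD, n = 3), and the log2 fold change was 5.02 ± 0.20 (SE; edgeR adjusted p-value 5.72e-10). Fcgr1 had the largest fold change of the 5 and ranked 22 of 15344 genes.

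Fcgr3 (ENSMUSG00000059498, mm10 chromosome 1, 171051174 to 171064935, minus strand) encodes CD16, a low-affinity activating receptor for IgG. It had 128, 122 and 131 scaled reads in Input, against 3495, 4343 and 2881 in Positive. The Input libraries differed little, and the groups did not overlap. The log2 fold change was 4.82 ± 0.15 (SE; edgeR adjusted p-value 1.94e-10).

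Fcgr2b (ENSMUSG00000026656, mm10 chromosome 1, 170958617 to 170976547, minus strand) encodes CD32B, the inhibitory IgG receptor of the family. It had 46.2, 60.5 and 36.3 scaled reads in Input, against 1121, 1332 and 843 in Positive. Again there was no overlap, and animal 208 was lowest in both fractions. The log2 fold change was 4.50 ± 0.20 (SE; edgeR adjusted p-value 1.94e-09). Fcgr2b and Fcgr3 lie next to Fcgr4 on chromosome 1 and share exon sequence. Of 42-base stretches of exon, the length of a trimmed read, 11.0% of those of Fcgr3 and 4.99% of those of Fcgr2b were also found in another gene, 190 of them shared between both. How reads from these stretches were divided between the genes is uncertain. No such stretch was shared by Fcgr1, Fcer1g or Fcrls.

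Fcer1g (ENSMUSG00000058715, mm10 chromosome 1, 171229572 to 171234365, minus strand) encodes the common gamma chain, the ITAM adaptor that Fcgr1 and Fcgr3 need for signalling and surface expression. It had 61.3, 72.1 and 86.8 scaled reads in Input, against 1308, 1718 and 1226 in Positive. In Input the highest value was in animal 208, which had the lowest value in Positive. The log2 fold change was 4.27 ± 0.16 (SE), the smallest of the 5, at rank 145 of 15344 (edgeR adjusted p-value 5.15e-10).

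Fcrls (ENSMUSG00000015852, mm10 chromosome 3, 87250758 to 87263738, minus strand) encodes Fc receptor-like S, a family member in use as a microglial marker in the mouse. It had the highest values of the 5, with 316, 306 and 334 scaled reads in Input, against 8574, 11119 and 7289 in Positive. The groups did not overlap. The log2 fold change was 4.82 ± 0.15 (SE), the same at 2 decimals as that of Fcgr3 (edgeR adjusted p-value 1.94e-10).

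**Figure D1:**
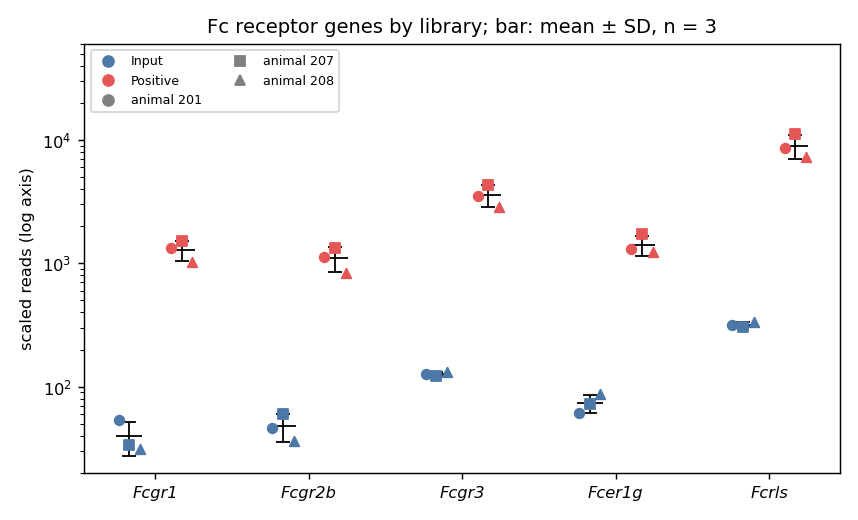
Scaled reads on a log axis for the 5 genes in each library, with Input in blue and Positive in red, marker shapes for the animals, and horizontal bars for the mean with its SD (n = 3). The Positive libraries sit above the Input libraries for every gene, and within Positive animal 207 is highest and animal 208 lowest for all 5.

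Among the Positive libraries, animal 207 had the highest and animal 208 the lowest level of all 5 genes. Within animals, the log2 ratio of Positive to Input was 4.59, 5.44 and 5.00 for Fcgr1 in animals 201, 207 and 208, against 4.57, 4.44 and 4.50 for Fcgr2b. The spread was thus wider for Fcgr1 than for Fcgr2b, although both rest on similar numbers of reads. Without the Positive library of animal 208, the log2 fold changes were 5.16 for Fcgr1, 4.66 for Fcgr2b, 4.95 for Fcgr3, 4.37 for Fcer1g and 4.95 for Fcrls. All 5 genes were higher in each of 14 alternative fits.

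Levels were compared between genes per kilobase of exon, since transcripts differ in length. In Positive, Fcrls had 3853 ± 835 scaled reads per kilobase (SD, n = 3), followed by Fcgr3 with 2058 ± 423, Fcer1g with 1622 ± 302, Fcgr1 with 497 ± 92.7 and Fcgr2b with 189.8 ± 42.4. The ranges of Fcgr3 and Fcer1g overlapped between libraries, although Fcgr3 was the higher in each of the 3, by 1.27-fold on average. All other neighbours in this order had separate ranges. In Input the order was Fcrls with 136 ± 6.12, Fcer1g with 84.0 ± 14.6, Fcgr3 with 73.0 ± 2.63, Fcgr1 with 15.3 ± 4.78 and Fcgr2b with 8.23 ± 2.11. There Fcer1g and Fcgr3 overlapped, with Fcer1g the higher in 2 of 3 libraries. The inhibitory Fcgr2b was therefore the lowest of the 5 per length in both fractions. Its annotated exons add up to 5790 bases, the longest of the 5, and with its longest basic transcript of 3544 bases its Positive level was 310.0 per kilobase, still the lowest. With that length the Input ranges of Fcgr1 and Fcgr2b overlapped, as did the Positive ranges of Fcrls and Fcgr3.

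**Figure D2:**
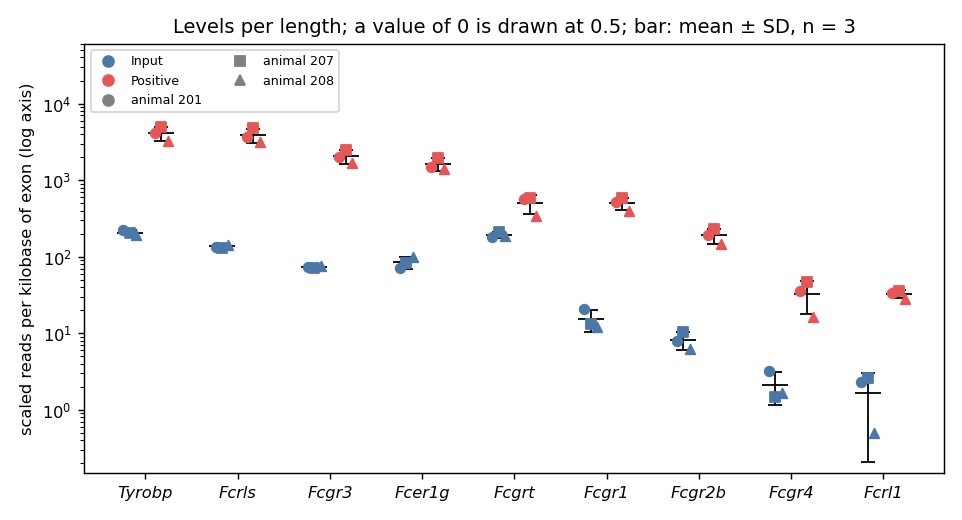
Scaled reads per kilobase of exon on a log axis for the 5 genes, Tyrobp and 3 other Fc receptor genes, with Input in blue, Positive in red, marker shapes for the animals and bars for the mean with its SD (n = 3). Fcrls and Tyrobp lead in Positive, Fcgr4 and Fcrl1 lie at the bottom, and Fcgrt has the smallest gap between fractions.

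Whether the genes were higher in Positive by the same factor was asked with the ratio of a gene to another within a library. Such a ratio does not depend on scaling. The test used was an unpaired two-sided exact permutation test, whose smallest p with 3 against 3 is 0.1, so it could not place any of the 10 pairs under 0.05. The difference in each animal is given beside it. The ratio of Fcgr3 to Fcer1g was 1.73 in Input and 2.51 in Positive, a log2 difference of 0.54 that was 0.37, 0.59 and 0.65 in the 3 animals (exact permutation p = 0.1, adjusted 0.5). The ratio of Fcer1g to Fcrls went the other way, from 0.231 to 0.158, with a log2 difference of -0.54 (exact permutation p = 0.1, adjusted 0.5). These were the only pairs whose Input and Positive libraries did not overlap, and in both of them Fcer1g was the gene with the smaller change. Fcgr3 and Fcrls kept nearly the same ratio, 0.400 in Input and 0.398 in Positive, and their log2 difference was -0.007 ± 0.024 (SD over 3 animals). The largest mean difference was that of Fcgr1 to Fcer1g, 0.76 on the log2 scale, but it ranged from 0.20 to 1.19 over the animals and its groups overlapped (exact permutation p = 0.3, adjusted 0.571). For Fcgr2b to Fcer1g, the inhibitory receptor against the activating chain, the log2 difference was 0.25 and had no common sign (0.18, -0.12 and 0.70).

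**Figure D3:**
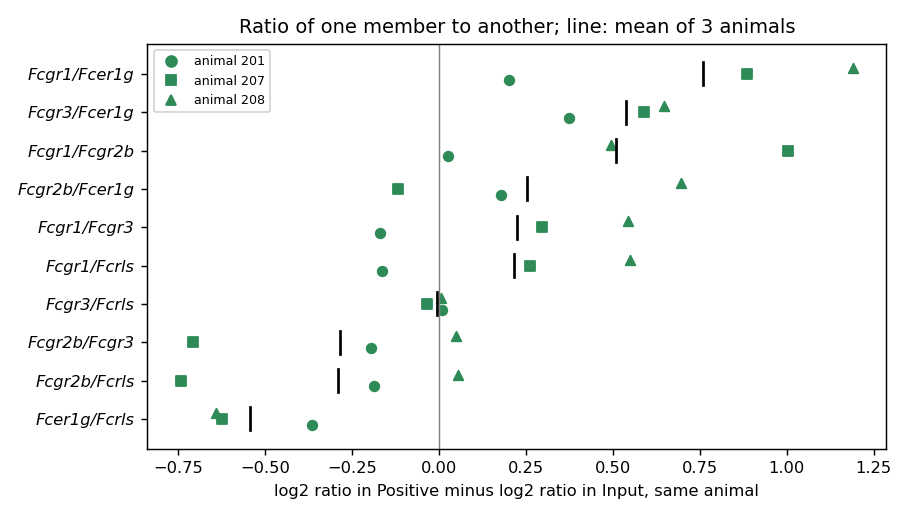
Difference between Positive and Input in the log2 ratio of one gene to another within a library, for the 10 pairs, with a point for each animal and a line for the mean. The points of Fcgr3/Fcrls lie close to 0, those of Fcgr3/Fcer1g lie between 0.37 and 0.65, and those of Fcgr1/Fcer1g spread from 0.20 to 1.19.

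Since the 5 genes were all higher in Positive, the bases before their start sites were searched for short motifs of factors that act in macrophages. The windows held the 250 bases before each start in RefSeq on GRCm38.p6, and all 5 genes were matched. The motifs were GAGGAA, the core of the box bound by PU.1, GGAAGT, a general ETS motif, the composite element of ETS factors with IRF proteins (GGAA, any 2 bases, GAAA), and TATAAA, each on both strands. Of all 32851 such windows, 23.3% held GAGGAA, 19.7% GGAAGT, 2.30% the composite element and 12.4% TATAAA. The stretches printed here hold the matches other than TATAAA, in capitals, except for Fcer1g, whose stretch is shown as the member without a match. A match is a description of letters and not a binding site. All are on the minus strand, 5′ to 3′, and on the opposite strand a motif appears as its reverse complement.
Fcgr1, chr3:96293970-96294049: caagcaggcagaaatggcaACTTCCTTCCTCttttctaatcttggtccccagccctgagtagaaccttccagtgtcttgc
Fcgr3, chr1:171059404-171059483: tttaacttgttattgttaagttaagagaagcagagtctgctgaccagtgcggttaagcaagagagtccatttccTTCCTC
Fcgr2b, chr1:170976087-170976116: gaccgtttctTTTCACTTCCccatttggac
Fcer1g, chr1:171234366-171234445: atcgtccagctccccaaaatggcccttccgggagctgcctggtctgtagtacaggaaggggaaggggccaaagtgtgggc
Fcrls, chr3:87263651-87263680: caagtctgtaaaGAGGAAggacgtttgctt
Fcrls, chr3:87263582-87263611: gacaactttgccACTTCCtttttttcctat

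In Fcgr1, GGAAGT and GAGGAA adjoined on the opposite strand, 61 to 50 bases before the start. In Fcgr3, GAGGAA ended 1 base before the start that was used, and the table lists another start for this gene. That stretch lies within the span of Fcgr3 given above, which begins further upstream. The Fcgr2b stretch lies within an annotated GENCODE exon, and 3 and 18 bases of the Fcrls stretches do as well. In Fcgr2b, GGAAGT lay within the composite element, 35 to 26 bases before the start on the opposite strand, so these are overlapping letters and not separate matches. In Fcrls, GAGGAA lay 144 to 139 bases and GGAAGT 75 to 70 bases before the start, and TATAAA was found 217 bases before it. Fcgr4, which was not among the 5, held GAGGAA and GGAAGT in overlapping letters as well.

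The other Fc receptor genes were compared next. Of 13 on the list, 4 were tested and all 4 were called higher in Positive, with a median log2 fold change of 2.64. The remaining 9, among them Fcer1a, Fcer2a, Fcmr and Pigr, were not analysed here. To be tested, a gene needed more than 20 scaled reads in every library of a fraction. Fcgr4 and Fcrl1 passed this filter only through Positive and could hardly be called lower. Fcgr4, the mouse receptor for IgG2 subclasses, had 4, 2 and 2 reads in Input and 45.2, 58.4 and 20.7 scaled reads in Positive. Its log2 fold change was 3.91 ± 0.53 (SE, edgeR adjusted p-value 5.94e-05), and its pooled reads gave a fold of 15.8 with a 95% counting interval of 7.79 to 37.4. Fcrl1, a receptor-like gene known from B cells, had 8, 10 and 0 reads in Input and 121, 128 and 100.0 scaled reads in Positive, a log2 fold change of 4.26 ± 0.45 (SE, edgeR adjusted p-value 6.26e-06).

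Fcgrt and Trim21, which bind antibody inside the cell, changed less. Fcgrt, the neonatal receptor that recycles IgG, went from 406 ± 34.4 to 1049 ± 283 scaled reads (SD, n = 3). Its log2 fold change was 1.37 ± 0.17 (SE, edgeR adjusted p-value 2.68e-05). Trim21, a cytosolic antibody receptor and ubiquitin ligase, had 38.9 ± 8.93 and 99.9 ± 18.4 scaled reads (SD, n = 3) and a log2 fold change of 1.37 ± 0.24 (SE, edgeR adjusted p-value 0.000595). Per kilobase of exon, Fcgrt had 193 ± 16.4 scaled reads in Input, more than any of the 5, and 499 ± 135 in Positive, close to the level of Fcgr1. Fcgr4 and Fcrl1 had 33.0 ± 15.2 and 32.6 ± 4.06 scaled reads per kilobase in Positive (SD, n = 3), below Fcgr2b.

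Of 12 immunoglobulin chain genes, Ighm and Ighd were tested and both were called higher. They encode chains of IgM and IgD, and not of the IgG bound by Fcgr1, Fcgr2b and Fcgr3. Ighm, the heavy chain of IgM, went from 167 ± 20.2 scaled reads to 1559 ± 284 (SD, n = 3), and its log2 fold change was 3.22 ± 0.14 (SE, edgeR adjusted p-value 1.62e-09). Ighd, the heavy chain of IgD, had 2, 0 and 0 reads in Input and 39.9, 83.5 and 46.6 scaled reads in Positive, at least 18.9-fold higher against a floor of 3 reads per library. Ighd passed the filter only through Positive and could hardly be called lower. The IgG heavy chains and the kappa and lambda chains were not analysed here.

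Adaptors with an ITAM and receptors listed as partners of the Fcer1g chain followed. Tyrobp (DAP12), the other ITAM adaptor of myeloid cells, had 147, 136 and 128 scaled reads in Input, against 2762, 3336 and 2166 in Positive. Its log2 fold change was 4.32 ± 0.15 (SE, edgeR adjusted p-value 3.44e-10), and its ratio to Fcer1g was 1.87 in Input and 1.93 in Positive. Per kilobase of exon it had 4130 ± 877 scaled reads in Positive (SD, n = 3), a level within the spread of Fcrls. Cd79b, the adaptor of the B cell receptor, was the only other gene tested of this list of 7, with a log2 fold change of 3.97 ± 0.44 (SE, edgeR adjusted p-value 1.05e-05) from 12 reads in Input over the 3 libraries. Cd79b passed the filter only through Positive. Of 14 receptors on the list of Fcer1g partners, 6 were tested and all 6 were called higher, with a median log2 fold change of 4.11. All 6 passed the filter of 20 scaled reads only through Positive, so they could hardly be called lower. They were the lectin receptors Clec4n (4.73), Clec4a2 (4.30), Clec4a1 (3.86) and Clec4a3 (3.85), the activating receptor Lilra5 (4.15) and the cytokine receptor chain Csf2rb (4.06). Csf2rb was the most abundant, with 384 ± 97.0 scaled reads in Positive (SD, n = 3), while the Input level of Clec4n rested on 12 reads and that of Lilra5 on 9. Clec4a2 carries an ITIM of its own, and whether Clec4a1 and Clec4a3 use the Fcer1g chain is uncertain, so the list mixes roles.

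Of 31 kinases and adaptors that act after the ITAM, 28 were tested, 21 were higher and none was lower, with a median log2 fold change of 1.48. The most abundant members had small changes: Rac1 had a log2 fold change of 0.40, Grb2 of 0.70 and Pik3r1 of 0.65, and Src had 2858 ± 86.1 scaled reads in Input against 2905 ± 199.8 (SD, n = 3; edgeR adjusted p-value 0.834). Fyn (-0.13) and Lck (-0.62) had the lowest values and did not pass the test, although Fyn was called lower in 2 alternative fits, with -0.19 without the Positive library of animal 208 and -0.21 under total count scaling. The rest of the 7 that were not called, Yes1, Zap70, Cblb and Vav3, had values from 0.03 to 0.33 and were named after these were seen. Among other genes named after their values were seen, Syk had a log2 fold change of 3.61, the Src family kinase Lyn had 4.10, Btk had 4.64 and Plcg2 had 3.38. Within the Src family, Lyn was thus called higher, and Src, Fyn, Lck and Yes1 were not called.

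On the inhibitory side, 7 of 8 genes that act after an ITIM were higher and 1 was not called. Inpp5d, the lipid phosphatase SHIP1 that Fcgr2b recruits, had 162, 161 and 127 scaled reads in Input, against 3551, 4195 and 2617 in Positive. The groups did not overlap, and the log2 fold change was 4.52 ± 0.17 (SE, edgeR adjusted p-value 5.15e-10), next to 4.50 for Fcgr2b. Ptpn6 (SHP-1), named after its value was seen, had a log2 fold change of 4.88 ± 0.16 (SE), whereas the related phosphatase Ptpn11 (SHP-2) had 3824 ± 278 scaled reads in Input against 4050 ± 288 (SD, n = 3; edgeR adjusted p-value 0.452). The Csk kinase and its anchor Pag1 had log2 fold changes of 1.59 and 1.90, and the docking proteins Dok2 and Dok3 had 1.40 and 1.33. Of 12 further inhibitory receptors of myeloid cells, 10 were tested and all 10 were higher, with a median of 3.97, unchanged at 2 decimals with Pilra at its bound. Most of the 10, Cd300a, Pirb and Lilrb4a among them, passed the filter only through Positive and could hardly be called lower. Sirpa, the receptor for CD47, was the most abundant and had the smallest value, 1.09, while Lair1 had 4.03, Cd33 3.91, Cd300a 4.32, Pirb 3.36 and Lilrb4a 2.12.

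**Figure D4:**
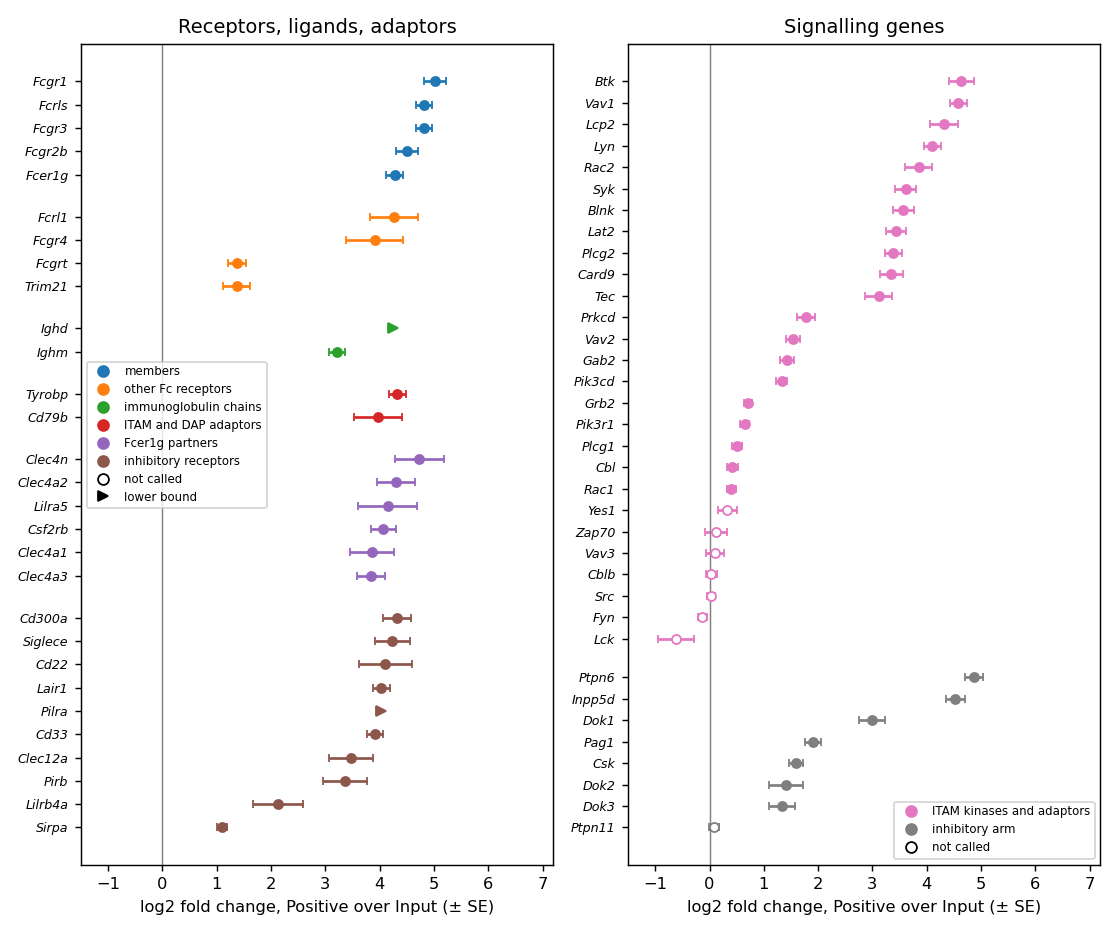
Log2 fold change of Positive over Input with its SE for the 5 genes and genes of the pathway lists, coloured by list, with open circles for genes that were not called and triangles for lower bounds. The 5 genes, called members in the key, lie between 4.27 and 5.02, Fcgrt and Trim21 at 1.37, and the 7 kinases and adaptors that were not called lie between -0.62 and 0.33.

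Genes with the pattern most like that of the 5 were sought among the 12110 genes that averaged 100 scaled reads or more. The measure was the Euclidean distance, over the 6 libraries, between centred log2 values of a gene and the mean of the 5. The closest were Csf1r, the receptor for colony-stimulating factor 1 (distance 0.087), Ctss, the lysosomal protease cathepsin S (0.0962), Lag3 (0.156), Cx3cr1 (0.163) and Mpeg1 (0.163). Of the 5 genes themselves, Fcgr3 (0.192) and Fcrls (0.222) lay nearest to their mean, followed by Fcgr2b (0.521), Fcer1g (0.675) and Fcgr1 (0.678). All 5 lay farther from that mean than the closest outside genes just named. The 6 libraries come from 3 animals and fall into 2 fractions, so the distance mostly describes the size of that difference.

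Markers of other cells that carry Fc receptors were read in the same libraries. All 10 border macrophage markers were higher in Positive, with a median log2 fold change of 3.95 and a summed level of 572 to 646 scaled reads in Input and 6377 to 12572 in Positive. The most abundant were Stab1 (3.80) and Mrc1 (4.19), and animal 207 was again highest and animal 208 lowest. Some of the 10 passed the filter only through Positive and could hardly be called lower. Of 8 B cell markers, 3 were tested: Cd22 (4.11) and Cd79b (3.97) were higher and Ebf1 (0.46) was not called, and their summed level was 50.2 to 69.1 in Input and 135 to 265 in Positive. Cd22 and Cd79b passed the filter only through Positive. The defining B cell markers Ms4a1, Cd79a and Pax5 were not analysed here. The part of border macrophages and B cells in the level of the 5 genes was not tested.

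Markers of other blood cells gave mixed values. Of 9 monocyte markers 4 were tested, with Fn1 (1.17) and Ly6c2 (1.61) higher and Ace (-0.93) and Vcan (-1.22) lower, Ly6c2 and Vcan being named after their values were seen, and a summed level of 1741 to 2119 scaled reads in Input and 1391 to 2469 in Positive. Most of the Input sum was Ace, with 1086 ± 152, and Fn1, with 565 ± 66.1 (SD, n = 3). The cells these came from were not tested. Of 9 neutrophil markers 2 were tested, with Csf3r (3.35) higher and Cxcr2 (-1.41) lower. Their summed level was 90.2 to 126 in Input and 563 to 812 in Positive. Most of it was Csf3r in Positive, with 694 ± 135 scaled reads, against 67.7 ± 11.7 in Input (SD, n = 3). Cxcr2 passed the filter only through Input and could hardly be called higher. The cells that Csf3r and Cxcr2 came from were not tested. Of 9 markers of mast cells and basophils, which also use Fcer1g, Kit (-0.20) and Hdc (-0.41) were tested and not called, with a summed level of 1400 to 1618 in Input and 1250 to 1451 in Positive. Nearly all of this sum was Kit, with 1486 ± 123 scaled reads in Input (SD, n = 3), and the cells it came from were not tested. The 7 natural killer cell markers were not analysed here. The 10 endothelial markers were all higher, with a median of 1.82 and a summed level of 3084 to 3404 in Input and 6315 to 12706 in Positive, and the most abundant were Pltp (0.83) and Flt1 (2.00). Within Positive this summed level was highest in animal 201, unlike the 5 genes, and lowest in animal 208, as for the 5 genes. Not every marker followed the sum, since Vwf was highest in animal 207. The part of endothelial cells in the result was not tested.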

How the data were processed

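RNA was measured in 6 directional poly(A) libraries, sequenced as 50-base pairs. The authors trimmed adapters, 2 bases at the 5′ end and 6 at the 3′ end, aligned to mm10 in Strand NGS using strand, and deposited expected counts (estimated counts that need not be whole) per gene, keeping genes with 20 reads in all libraries of 1 group or more. The deposited normalized columns are log2 values after DESeq scaling, used in 1 alternative here. Between 20.1% and 26.7% of raw values per library were whole (within 0.001), and 64.2% to 68.9% of whole values under 60 were even. How mates were counted is not given in the sources used here, and the number of independent fragments may be lower than that of reads.

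Expected counts were rounded and tested by quasi-likelihood (glmQLFit, glmQLFTest) in edgeR 4.0.16 under R 4.3.3, unpaired as in the study, with median-of-ratios scaling (RLE), genes above 20 scaled reads throughout 1 fraction or both (44 removed, 15344 kept) and Benjamini-Hochberg adjustment over all of them. An adjusted p-value under 0.05 was a call. A gene that passed the filter only through Positive could hardly be called lower. Btk, Dok2 and Ly6c2 were also such genes. Lck, Hdc, Cxcr2 and the choroid plexus marker Kcne2 passed only through Input and could hardly be called higher. Standard errors came from the F statistic. A pseudocount of 1 was used for ratios and distances. Alternatives used limma 3.58.1, DESeq2 1.42.0, other scalings and filters, an animal block and leaving out each library. The method was tested on simulated data. Replicate numbers come from the sample titles and were taken as animals that pair the fractions. Deviations from the group means correlated by 0.194, 0.058 and 0.12 within animals 201, 207 and 208 and by -0.14 to 0.032 between animals. These values are small, and centring on 3 libraries lowers those between animals, so they do not test the pairing.

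The 5 genes and all lists were chosen with earlier results of these data known. Named were the 5 genes, all tested genes of the other Fc receptors, adaptors and Fcer1g partners, the 4 most abundant genes and the 3 with the lowest fold change of each other signalling list, up to 2 abundant markers per cell type, and the 5 genes most alike. Some genes that were counted are not reported here by name. Others are said to have been named after their values were seen. The authors' gene coordinates matched GENCODE vM21. Sequences are from RefSeq (GRCm38.p6).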

Additional observations from a re-analysis of the deposited data

How the results depend on the processing

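All 5 genes were called higher in each of the 14 alternative fits. Their log2 fold changes ranged from 4.88 to 5.30 for Fcgr1, 4.34 to 4.71 for Fcgr2b, 4.66 to 4.95 for Fcgr3, 4.11 to 4.41 for Fcer1g and 4.64 to 4.95 for Fcrls, and the largest adjusted p-value in any fit was 0.000186. With the animal as a block, 7572 genes differed, 7026 of them among the 7053 reported, and the values were 5.02 for Fcgr1 and 4.27 for Fcer1g. The block changed no call of the genes named except that Kit was lower, with a log2 fold change of -0.20. Kit was also called lower under total count scaling (-0.27) and when Positive 208 was left out (-0.28), and so was Fyn (-0.21 and -0.19). Ebf1 was called higher with limma (0.45). Leaving out a library gave 5540 to 7266 genes.

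A filter at 100 scaled reads tested 12155 genes, so fewer genes of the short lists remained: those called higher numbered 2 of the other Fc receptors, 1 immunoglobulin chain, 1 adaptor, 3 Fcer1g partners, 5 inhibitory receptors and 1 monocyte marker. The 1 astrocyte marker called higher, Slc1a2, was lost (0) with limma and with total count scaling, and 0 to 1 were called on leaving out a library. Total count scaling shifted the median of all genes to -0.09. Src changed sign with the filter at 100 (-0.0046), under total count scaling (-0.054) and when Positive 208 was left out (-0.034), as did Hdc in that fit (0.048). Leaving out each library gave -0.034 to 0.053 for Src and -0.87 to 0.048 for Hdc. The log2 ratio difference of Fcgr2b to Fcer1g became -0.052 without the Input library of animal 208, in a range of -0.052 to 0.44. That of Fcgr3 to Fcrls became 0.0069 without animal 207, 0.0035 without the Input library of animal 201 and 0.0061 without the Positive library of animal 207, in a range of -0.025 to 0.0069. None of these sign changes concerned a called value, and their cause was not tested. Of the 5 genes most alike, 3 were shared with a pseudocount of 5 and 3 with Pearson correlation.

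The smallest Input values, 30 to 53 reads for Fcgr1, limit its ratios. Only 3 animals were measured, and the unpaired exact permutation test of the ratios could not pass 0.05.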

Other observations

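The genes around the 5 on the chromosome were read as a further comparison, with a rule chosen after the data were seen. Within 100.0 kilobases, 26 genes that were not among the 5 were tested. Over all genes tested, 24.0% were higher and 22.0% lower in Positive. Of the neighbours, 15 were not called, 7 were lower and 4 were higher, among them Fcgr4, Atf6 (log2 fold change 0.51) and Gm10705 (1.06). Among the neighbours of Fcer1g, Tomm40l, a mitochondrial import protein, had a log2 fold change of -0.49, and Adamts4, a matrix protease, had -1.71. Sdhc, between Fcgr3 and Fcer1g, had -0.16 and was not called. Near Fcgr1, the synaptic vesicle protein gene Sv2a went from 8101 ± 69.7 to 7191 ± 597 scaled reads (SD, n = 3) and was not called, and Kirrel, 76011 bases from Fcrls, was lower, with -0.95.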
